A study of Mus musculus with 8 samples.

Results

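The insulin and IGF receptors and substrates were taken as 6 named genes, *Insr*, *Insrr*, *Igf1r*, *Igf2r*, *Irs1* and *Irs2*, and all 6 were found among the 17362 genes of the table. Nuclei of cultured mouse pancreatic islets were profiled by single nucleus RNA-seq. Islets were wild type (WT) or came from mice with a whole-body Med14 S983A knock-in, here called mutant, in which a serine of the Mediator scaffold subunit Med14 is replaced by alanine. Islets of each genotype were untreated (CON), exposed to forskolin (FSK) or exposed to Exendin-4 (Ex-4). FSK, a direct activator of adenylyl cyclase, was given for 16 h. Ex-4, a GLP-1 receptor agonist, was given at 10 nM for 16 h. The mutant mice were listed as C57BL/6J, and the FSK dose for these islets and the age of the mice were not found in the labels or methods. Nuclei of the 6 conditions were mixed in each of 8 sublibraries, which are therefore not replicates.

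The table gave 1 pooled value for each of 6 conditions in each of 9 cell types. There were no replicates, no test between conditions was possible, and condition cannot be told apart from the islet preparation and the barcoding wells. Levels are given as counts per 10000 counts of the pool (CP10K), with an exact 95% Poisson interval in brackets that covers counting error only. Column totals ran from 1915006 to 3094377 counts in beta cells, from 269394 to 810127 in alpha cells and from 362410 to 631433 in delta cells. They fell to 1522 in the shallowest ductal column. Of 9 marker lists, 8 had their highest summed level in the cell type they name, the PP list resting on *Ppy* alone. The neuron list did not: its summed level was 3.74 CP10K in the columns labelled neurons against 7.78 in delta cells, and the columns labelled neurons also held 24.7 CP10K of beta cell markers. Because S983A is a substitution, the *Med14* level is no check of the genotype labels.

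Insulin and the IGFs act through receptor tyrosine kinases that phosphorylate the insulin receptor substrates, which in turn recruit PI3-kinase and activate AKT. *Insr* encodes the insulin receptor and *Igf1r* the type 1 IGF receptor. *Insrr* encodes the insulin receptor-related receptor, a family member that responds to alkaline pH and not to insulin. *Igf2r* encodes the cation-independent mannose 6-phosphate receptor, which removes IGF2 and carries lysosomal enzymes and has no kinase domain. *Irs1* and *Irs2* encode the main substrates, and *Irs2* is a known CREB target that supports beta cell growth and survival.

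In GRCm39 with GENCODE M39, the build that the submitters' processing notes name as mm39, *Insr* lies on chr8:3172061-3329647 on the minus strand and *Insrr* on chr3:87704246-87723408 on the plus strand. *Igf1r* lies on chr7:67601518-67883416 on the plus strand and *Igf2r* on chr17:12901293-12988614 on the minus strand. *Irs1* lies on chr1:82210822-82269338 and *Irs2* on chr8:11034681-11059499, both on the minus strand. *Igf1r*, *Igf2r* and *Irs2* each overlap a gene of the opposite strand that is also in the table: *Pgpep1l* at *Igf1r*, *Airn* at *Igf2r* and *9530052E02Rik* at *Irs2*. The labels and methods do not state whether strand was used in counting, so reads of such pairs cannot be told apart with certainty, and the levels of the partners are given beside the results.

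RefSeq promoter windows were at hand for 4 of the members, *Irs1*, *Irs2*, *Igf1r* and *Igf2r*, and the 250 bases before each start were placed in GRCm39 by exact match. They were searched on both strands for the cAMP response element TGACGTCA, its half-site TGACG, the E-box CACGTG and TGTTTTG, a core of the insulin response element bound by FOXO factors. These letters were chosen after the windows and earlier results had been seen. The full element was in 0 of the 4 windows and in 1.55% of 32851 windows of the same length. The half-site was in the *Irs1* and *Igf2r* windows and in 17.8% of all windows, the E-box was in the *Irs1*, *Irs2* and *Igf2r* windows and in 6.02%, and TGTTTTG was in the *Irs1* and *Irs2* windows and in 5.56%. *Irs1* and *Irs2* both held an E-box followed by TGTTTTG, and 97 of all windows, or 0.295%, held both motifs in any arrangement. The 4 windows held 69.2% to 77.6% G or C, against a median of 52.4% over all windows. Shares among windows of like content were not computed. On the other strand the half-site reads CGTCA, and it overlaps an E-box by 2 bases in *Irs1* and, for 1 of its 2 copies, in *Igf2r*. The *Igf1r* window held none of these letters. All 4 windows overlap an exon of their gene in GENCODE M39. The windows of *Igf1r*, chr7:67601755-67602004, and *Irs2*, chr8:11058930-11059179, lie wholly within the gene. The absence of letters there does not describe the sequence before the GENCODE start. The 30 bases around the E-box nearest TGTTTTG are shown because the pair is shared by both substrates, with the first E-box of *Igf2r* for comparison; capitals mark the E-box and, where present, the TGTTTTG after it.
Irs1: cagaggctccgtCACGTGTTTTGctcctct
Irs2: gtaacgcagagtCACGTGtTGTTTTGctct
Igf2r: gaacgaggacgtCACGTGagcaggaggcgg
The *Irs1* site is chr1:82269258-82269287, 115 bases before the RefSeq start to the first base of the E-box, and its motifs share 2 bases. The *Irs2* site is chr8:11058956-11058985, with the E-box 44 bases before the start and 1 base between the motifs. GENCODE M39 places both of these sites within an exon of the gene, and the *Igf2r* site, chr17:12988624-12988653, in no exon. All 3 are read on the minus strand. A match is a description of these letters and not evidence of binding.

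FSK was followed by the largest differences of the receptors and substrates in beta cells, and they went in both directions. *Igf1r* was 48.4 CP10K [47.6 to 49.1] in WT FSK against 12.6 [12.2 to 13.0] in WT CON. In the mutant it was 49.7 [48.8 to 50.6] with FSK against 7.80 [7.41 to 8.21] in CON. Both FSK pools thus lay far above all 4 pools without FSK, of which the highest was WT CON. The linear ratio of FSK to CON was 3.84 (3.71 to 3.98, 95% counting interval) in WT and 6.37 (6.04 to 6.73) in the mutant. Among the 10093 genes kept in beta cells, the *Igf1r* difference with FSK ranked 6 from the highest in WT and 1 in the mutant. The overlapping *Pgpep1l* held 2 counts in WT FSK, 5 in mutant FSK and 0 in the other beta cell pools, beside 14962 and 11449 counts of *Igf1r* in the FSK pools.

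*Irs2* was also higher with FSK in beta cells. It was 1.64 CP10K [1.5 to 1.79] in WT FSK against 0.621 [0.535 to 0.716] in WT CON, a ratio of 2.64 (2.23 to 3.14). In the mutant it was 1.89 [1.72 to 2.07] against 0.732 [0.616 to 0.864], a ratio of 2.58 (2.13 to 3.14). The FSK pools did not overlap any of the others, and the intervals of the WT and mutant ratios overlapped. The antisense *9530052E02Rik* was 0.831 CP10K [0.732 to 0.939] in WT FSK against 0.511 [0.434 to 0.599] in WT CON, and 0.651 [0.551 to 0.764] against 0.358 [0.279 to 0.454] in the mutant. Its part in the *Irs2* difference was not tested.

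*Insrr* went the other way. It was 1.43 CP10K [1.30 to 1.57] in WT FSK against 5.16 [4.91 to 5.42] in WT CON, which is 3.60-fold lower (3.23 to 4.0). In the mutant it was 1.31 [1.16 to 1.46] with FSK against 4.75 [4.44 to 5.06], which is 3.63-fold lower (3.19 to 4.15). Both FSK pools lay below the 4 others, which ran from 4.31 to 5.16 CP10K. The difference ranked 5 from the lowest of the kept genes in WT and 29 in the mutant.

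**Figure D1:**
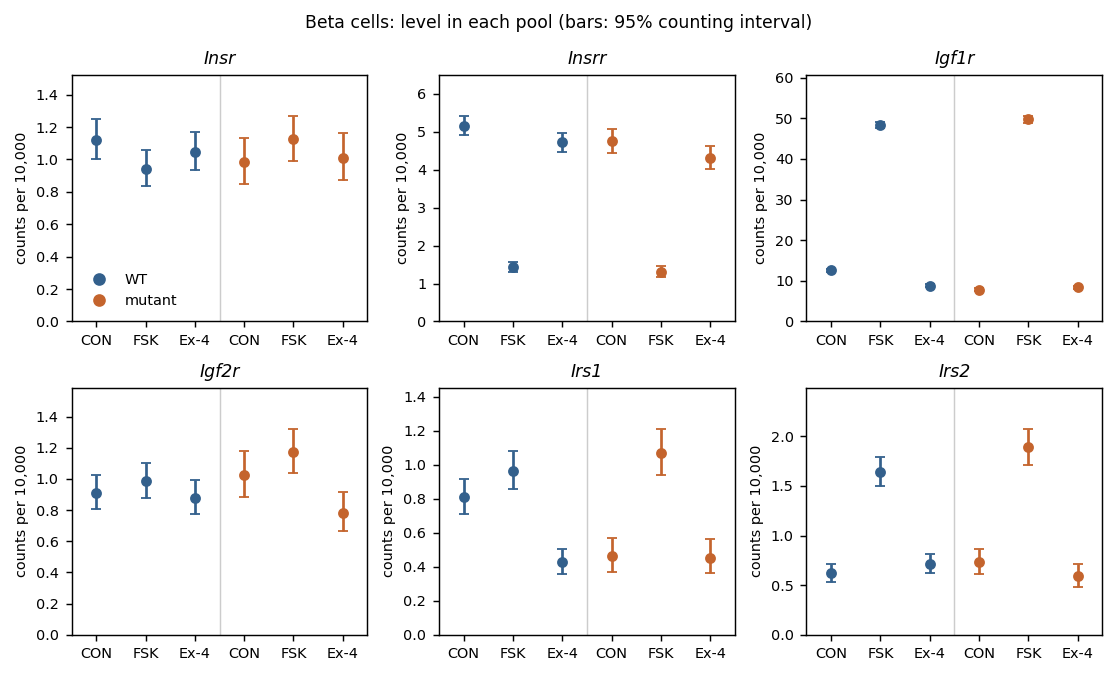
Level of each receptor and substrate in beta cells (vertical axis, counts per 10000) in the 6 pools, WT in blue and mutant in orange; points are single pools and bars are 95% counting intervals. *Igf1r* reached 48.4 and 49.7 CP10K with FSK, *Insrr* fell to 1.43 and 1.31, and *Irs2* reached 1.64 and 1.89.

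For calls across genes, columns were compared as a difference of log2(CP10K + 1), which understates the ratio of low genes, and the threshold for a call was 1.5-fold, a difference of 0.585. In WT beta cells with FSK, 2 of the 6 genes were higher (*Igf1r* by 1.86 and *Irs2* by 0.70) against 1.52% of all kept genes, and *Insrr* was lower, with a difference of -1.34, against 0.723%. In mutant beta cells the same 2 were higher (2.53 and 0.74) against 5.12%, and *Insrr* was lower (-1.32) against 2.7%. Counting intervals did not overlap for 3 of the 6 genes in WT, where this was so for 36.6% of all kept genes, and for 4 of the 6 in the mutant, where it was 45.1%.

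The fourth gene in the mutant was *Irs1*. It was 1.07 CP10K [0.939 to 1.21] in mutant FSK against 0.462 [0.371 to 0.569] in mutant CON, a ratio of 2.31 (1.81 to 2.98). In WT it was 0.963 [0.857 to 1.08] against 0.810 [0.712 to 0.918], a ratio of 1.19 (1.00 to 1.41). The difference was 0.50 and 0.12 on the log2 scale, so neither was past the threshold. The FSK levels of the genotypes overlapped and the CON levels did not. *Insr* stayed between 0.944 and 1.12 CP10K in all 6 beta cell pools, and *Igf2r* between 0.783 and 1.17. For *Insr* the ratio with FSK was 0.841 (0.717 to 0.987) in WT and 1.15 (0.946 to 1.39) in the mutant. For *Igf2r* it was 1.08 (0.914 to 1.28) and 1.15 (0.950 to 1.38). *Airn*, which overlaps *Igf2r*, was the more abundant of the pair and lay between 5.93 and 6.77 CP10K in the beta cell pools.

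In alpha cells, *Igf1r* and *Irs2* were again higher with FSK in both genotypes. *Irs2* was 2.71 CP10K [2.12 to 3.41] in WT FSK against 0.453 [0.273 to 0.708] in WT CON, and 2.51 [2.17 to 2.88] against 0.593 [0.437 to 0.786] in the mutant. The ratios were 5.98 (3.57 to 10.5) and 4.23 (3.07 to 5.93). *Igf1r* was 7.87 [6.85 to 9.0] against 2.22 [1.79 to 2.72] in WT and 6.74 [6.18 to 7.34] against 1.74 [1.47 to 2.05] in the mutant. On the log2 scale 2 of the 6 genes were higher, *Igf1r* by 1.46 and 1.5 and *Irs2* by 1.35 and 1.14, against 1.34% of kept genes in WT and 3.13% in the mutant. None of the 6 was lower past the threshold, against 1.17% and 0.885%. *Insrr* gave -0.26 and -0.55, from 9 counts in WT FSK and 13 in mutant FSK. In WT it was 0.334 [0.153 to 0.634] against 0.596 [0.386 to 0.880], and the intervals overlapped. In the mutant it was 0.165 [0.0881 to 0.283] against 0.704 [0.533 to 0.912]. That is 4.25-fold lower (2.30 to 8.47), with intervals apart. *Igf2r* was 2.56 [1.99 to 3.24] against 1.57 [1.22 to 2.00] in WT and 2.80 [2.44 to 3.19] against 1.62 [1.35 to 1.92] in the mutant, differences of 0.47 and 0.54 that did not reach the threshold. *Airn* in alpha cells was 15.1 [13.7 to 16.7] against 16.6 [15.3 to 17.8] in WT and 15 [14.1 to 15.8] against 12.7 [12 to 13.5] in the mutant. *9530052E02Rik* was 0.780 [0.483 to 1.19] against 0.310 [0.165 to 0.530] in WT and 0.624 [0.461 to 0.824] against 0.296 [0.190 to 0.441] in the mutant.

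In delta cells *Igf1r* and *Irs2* were higher and *Insrr* was lower with FSK in both genotypes. *Igf1r* was 21.8 CP10K [20.4 to 23.2] in WT FSK against 3.67 [3.07 to 4.35] in WT CON, a ratio of 5.94 (4.95 to 7.18), and 24.2 [23.0 to 25.5] against 3.57 [3.09 to 4.09] in the mutant, a ratio of 6.79 (5.86 to 7.91). *Irs2* was 2.43 [1.99 to 2.95] against 0.304 [0.152 to 0.543] in WT and 2.26 [1.91 to 2.67] against 0.671 [0.475 to 0.921] in the mutant. *Insrr* was 0.140 [0.0515 to 0.305], from 6 counts, against 1.85 [1.43 to 2.35] in WT, and 0.253 [0.145 to 0.411], from 16 counts, against 1.38 [1.09 to 1.72] in the mutant, which is 13.2-fold (5.75 to 37.2) and 5.44-fold (3.15 to 9.97) lower. Of the 6 genes 2 were thus higher, *Igf1r* by 2.29 and 2.47 and *Irs2* by 1.4 and 0.97, against 2.45% of kept genes in WT and 5.47% in the mutant. *Insrr* was lower (-1.32 and -0.92) against 2.33% and 2.44%. *Irs1* was 0.374 [0.214 to 0.608] against 0.110 [0.0301 to 0.283] in WT and 0.459 [0.308 to 0.660] against 0.124 [0.0497 to 0.255] in the mutant, from at most 29 counts a pool. The intervals of *9530052E02Rik* overlapped in delta cells, at 0.351 [0.196 to 0.579] with FSK against 0.386 [0.211 to 0.648] in WT and 0.317 [0.193 to 0.489] against 0.247 [0.135 to 0.415] in the mutant. *Airn* was 4.58 [3.96 to 5.27] with FSK against 6.76 [5.94 to 7.66] in WT and 3.83 [3.36 to 4.35] against 7.98 [7.26 to 8.75] in the mutant, while *Igf2r* in delta cells ran from 0.607 to 1.11 over the 6 conditions. *Insr* ran from 1.14 to 1.57 in delta cells and from 1.1 to 1.48 in alpha cells, and *Irs1* from 0.164 to 0.496 in alpha cells, from 7 to 39 counts a pool.

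**Figure D2:**
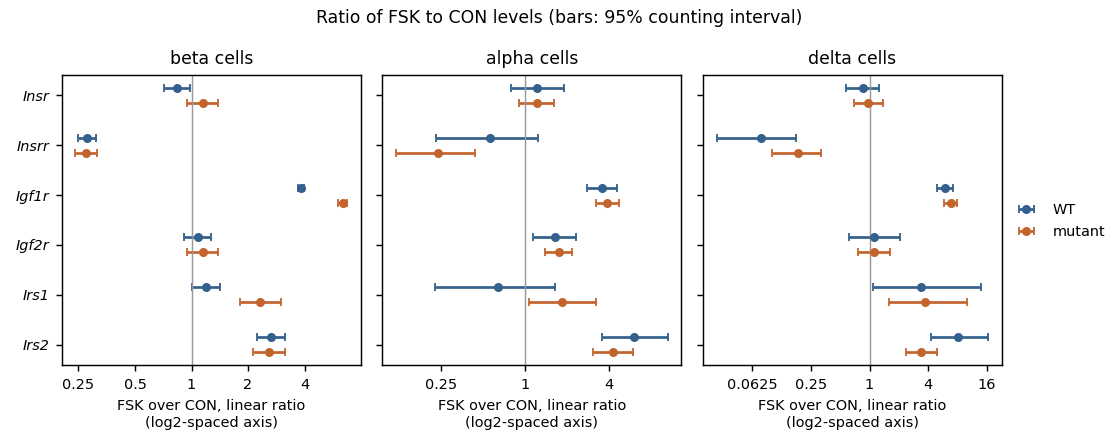
Linear ratio of the FSK to the CON level (horizontal axis, log2-spaced) of each gene in beta, alpha and delta cells, with 95% counting intervals as bars, WT in blue and mutant in orange. *Igf1r* and *Irs2* lie to the right of 1 in all 3 cell types and both genotypes, and *Insrr* lies to the left, with the WT alpha cell interval (0.230 to 1.24) spanning 1.

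Beta cell markers were detected in the alpha and delta pools, 10 of 10 in both when the conditions were summed, with a summed level of 12.7 to 34.0 CP10K over the 6 alpha pools and 5.92 to 13.1 over the delta pools, against 47.7 to 66.1 in beta cells. As a percent of the beta cell level of the same condition, the median marker ran from 8.84% to 15.6% in alpha cells. The lowest marker ran from 0% to 10.7% there and the highest from 112% to 154%. The alpha sums therefore include a marker that was not lower in alpha than in beta cells. *Igf1r* ran from 13.6% to 23.4% and *Insrr* from 11.6% to 23.3%, each above the median marker in all 6 conditions. The part of such RNA in the alpha cell differences was not tested. *Irs2* was at 165% and 133% of the beta cell level in alpha cells with FSK and at 148% and 120% in delta cells, and *Igf2r* in alpha cells was at 158% or more in every condition, levels above those in beta cells. *Airn*, which overlaps *Igf2r*, was also higher in alpha than in beta cells in every condition. In delta cells the median marker was 17.7% in WT CON and 4.38% in WT FSK, and 19.9% and 8.47% in the mutant. Single markers there ran from 0% to 32.8% with FSK in each genotype. *Igf1r* went from 29.2% to 45.1% with FSK in WT and from 45.7% to 48.8% in the mutant. The part of beta cell RNA in the delta cell *Igf1r* levels was not tested. *Insrr* went from 35.8% to 9.78% in WT and from 29.0% to 19.4% in the mutant, and so was lower in the same pools as the markers, whose part was not tested.

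**Figure D3:**
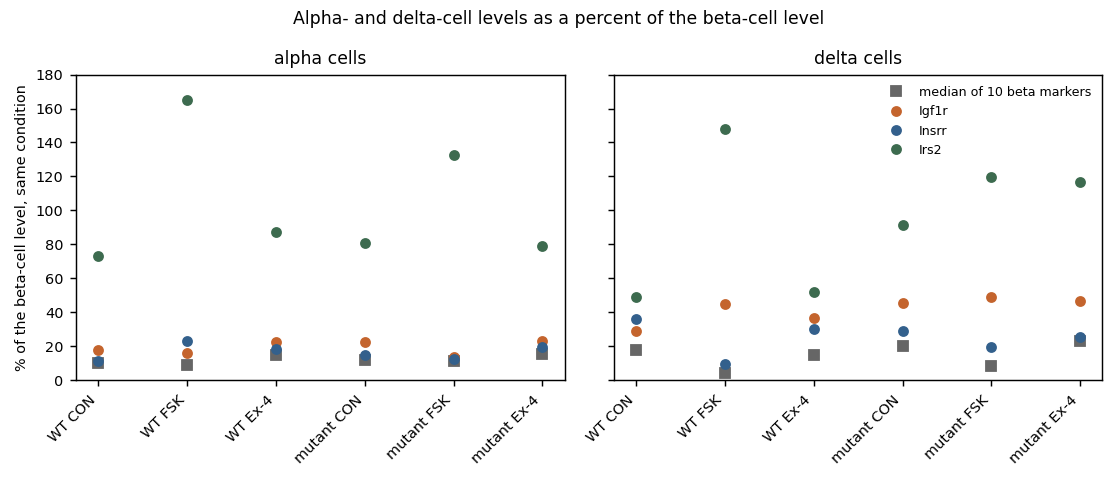
Level in alpha cells and in delta cells as a percent of the beta cell level of the same condition (vertical axis) in the 6 conditions, for *Igf1r*, *Insrr*, *Irs2* and the median of 10 beta markers (grey squares). In delta cells with FSK the median marker was at 4.38% and 8.47% and *Igf1r* at 45.1% and 48.8%.

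The rarer cell types were read at low counts. *Igf1r* in PP cells was 8.01 CP10K [5.67 to 11] with FSK against 3.54 [2.22 to 5.35] in WT and 5.96 [4.49 to 7.75] against 1.88 [1.2 to 2.80] in the mutant, ratios of 2.27 (1.31 to 4.02) and 3.17 (1.93 to 5.36). In endothelial cells the ratio was 1.33 (0.838 to 2.07) in WT and 2.46 (1.70 to 3.59) in the mutant. In muscle cells it was 2.13 (0.907 to 5.76) and 2.05 (1.22 to 3.60). In macrophages the genotypes went opposite ways, with a ratio of 2.91 (1.45 to 6.32) in WT, from 37 counts with FSK and 11 in CON, and 0.440 (0.112 to 1.25) in the mutant, from 4 counts and 29. The mutant macrophage intervals overlapped, and the difference between the genotypes was not tested. The columns labelled neurons gave 5.56 (0.91 to 58.4) and 1.77 (0.997 to 3.13), and the ductal columns held from 0 to 13 counts. The beta markers summed to between 1.69 and 14.8 CP10K in the PP pools and between 2.34 and 12.1 in the endothelial pools. Other differences in the rarer types were also past 1.5-fold on the log2(CP10K + 1) scale, and not all are listed. *Irs2* in muscle cells held 15 counts with FSK against 1 in WT, and 15 against 0 in the mutant. *Igf1r* in mutant PP cells with Ex-4 had a ratio of 2.07 (1.21 to 3.60). *Insr* in endothelial cells with Ex-4 had a mutant to WT ratio of 0.504 (0.305 to 0.844).

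Ex-4 was followed by smaller differences. In WT beta cells *Igf1r* was 8.80 CP10K [8.47 to 9.15] with Ex-4 against 12.6 in CON, 1.43-fold lower (1.36 to 1.5), and *Irs1* was 0.426 [0.355 to 0.507] against 0.810, 1.90-fold lower (1.53 to 2.38). On the log2 scale these were -0.47 and -0.34, and none of the 6 genes was past the threshold, against 3.12% of kept genes. Intervals did not overlap for these 2, against 41% of kept genes. *Irs2* was 0.711 [0.619 to 0.814] with Ex-4 against 0.621 in CON, a ratio of 1.15 (0.937 to 1.4). *Insrr* was 4.72 [4.48 to 4.97] against 5.16, and its intervals overlapped.

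In mutant beta cells with Ex-4, *Igf1r* was 8.42 CP10K [8.01 to 8.84] against 7.80 in CON and *Irs1* was 0.454 [0.364 to 0.560] against 0.462. None of the 6 was past the threshold, against 0.0495% of kept genes, and none had intervals apart, against 3.2%. The largest difference was that of *Igf2r*, 0.783 [0.663 to 0.919] against 1.02 [0.885 to 1.18], a ratio of 0.766 (0.615 to 0.952). In alpha cells with Ex-4 none of the 6 was past the threshold in either genotype, against 5.72% of kept genes in WT and 0.0422% in the mutant. In delta cells there were again none, against 5.06% and 0.0432%, and the largest difference was 0.39 for *Igf2r* in WT, from 48 counts against 22.

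Between untreated genotypes, *Igf1r* was 1.61-fold lower (1.52 to 1.71) in mutant than in WT beta cells. It was the 1 member past the threshold (-0.63), against 5.34% of kept genes in either direction. *Irs1* was 1.75-fold lower (1.37 to 2.26), a difference of -0.31. Intervals were apart for these 2 genes, against 41.7% of kept genes. WT CON was the pool that stood apart for both: *Igf1r* was between 7.80 and 8.80 CP10K and *Irs1* between 0.426 and 0.462 in both Ex-4 pools and in mutant CON. The same WT CON pool serves in the WT Ex-4, WT FSK and baseline comparisons. Ribosomal RNA linked and mitochondrial genes took 3.45% of the beta cell counts in WT CON, 9.21% in WT Ex-4, 11.9% in mutant CON and 14.9% in mutant Ex-4. They took 2.81% in WT FSK and 2.76% in mutant FSK. The shares of the FSK and CON pools were thus further apart in the mutant than in WT. With those genes left out of the column totals the *Igf1r* baseline difference was -0.51, and with a trend on gene length removed it was -0.30, both short of the threshold.

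Under FSK the genotypes were close in beta cells. The mutant to WT ratio was 1.03 (1.00 to 1.05) for *Igf1r*, 0.911 (0.784 to 1.06) for *Insrr*, 1.11 (0.933 to 1.32) for *Irs1* and 1.15 (1.01 to 1.31) for *Irs2*. None of the 6 was past the threshold, against 0.139% of kept genes, and none had intervals apart, against 11.3%. The wider FSK ratios of *Igf1r* and *Irs1* in the mutant therefore came with lower CON levels and like FSK levels. The mutant CON pool also held the larger share of ribosomal RNA linked and mitochondrial genes given above. With Ex-4 the mutant to WT ratio was 0.956 (0.898 to 1.02) for *Igf1r* and 1.07 (0.802 to 1.41) for *Irs1*, with none of the 6 past the threshold against 0.0594% and none with intervals apart against 10.3%. In alpha cells none was past the threshold at baseline, under FSK or under Ex-4, against 7.38%, 0.485% and 0.116% of kept genes. In delta cells none was either, against 7.05%, 0.411% and 0.281%.

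Across cell types, with counts summed over the 6 conditions, the receptors had different places of highest level. A level is a share of the counts of a pool, so fewer nuclei with the transcript and less of it in each nucleus cannot be told apart. *Insr* was highest in endothelial cells at 4.07 CP10K [3.61 to 4.57], followed by PP cells at 2.02 [1.63 to 2.47]. Delta cells at 1.30 [1.18 to 1.44] and alpha cells at 1.24 [1.12 to 1.36] overlapped, and beta cells were at 1.04 [0.989 to 1.09]. Over the 6 conditions *Insr* ran from 2.63 to 6.75 in endothelial cells and from 0.944 to 1.12 in beta cells, without overlap.

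*Igf1r* was highest in beta cells at 23.6 CP10K [23.4 to 23.8], followed by delta cells at 10.6 [10.2 to 11], in sums that include the FSK pools. PP cells at 4.03 [3.48 to 4.65] and endothelial cells at 4.37 [3.89 to 4.89] overlapped, and alpha cells were lowest at 3.46 [3.27 to 3.66], an interval that overlaps that of PP cells. The order differed in untreated pools. In WT CON, delta cells at 3.67 and endothelial cells at 4.25 [3.17 to 5.57] overlapped. In mutant CON, delta cells at 3.57 [3.09 to 4.09] lay below macrophages at 6.22 [4.17 to 8.94], from 29 counts. The ductal value there, 9.34 [4.97 to 16.0] from 13 counts, overlapped that of beta cells at 7.80. *Insrr* was highest in beta cells at 3.57 [3.48 to 3.67], and the next was the column set labelled neurons at 2.40 [1.74 to 3.23], from 43 counts and with the beta markers noted above. Delta cells followed at 0.972 [0.863 to 1.09] and alpha cells were at 0.592 [0.515 to 0.678]. *Igf2r* was 1.91 [1.77 to 2.06] in alpha cells against 0.958 [0.909 to 1.01] in beta cells and 0.861 [0.759 to 0.974] in delta cells. The overlapping *Airn* was also highest in alpha cells of these 3 types. It ran from 11.9 to 16.6 in the alpha pools, 5.93 to 6.77 in the beta pools and 3.83 to 8.04 in the delta pools. Its part in the *Igf2r* levels was not tested. The ductal value of 1.94 rests on 10 counts.

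The substrates differed from each other. *Irs1* was highest in beta cells at 0.716 CP10K [0.674 to 0.760], against 0.309 [0.254 to 0.373] in alpha cells and 0.229 [0.178 to 0.290] in delta cells, and its muscle and PP values, from 17 and 24 counts, overlapped that of beta cells. It was lowest among the deeper types in endothelial cells at 0.129 [0.0591 to 0.246], from 9 counts. *Irs2* with the conditions summed was 1.18 [1.06 to 1.31] in delta cells, 1.14 [1.03 to 1.26] in alpha cells and 1.05 [0.997 to 1.1] in beta cells, and was 0.244 [0.142 to 0.391] in endothelial cells. The first 3 intervals overlapped, but the order of these cell types was not the same in each condition. In WT CON beta cells were highest at 0.621, with alpha cells at 0.453 and delta cells at 0.304, although the intervals overlapped. In WT FSK beta cells were lowest at 1.64, with alpha cells at 2.71 and delta cells at 2.43, and their interval lay below both others. Among beta, alpha, delta, PP and endothelial cells, 3 of the 6 genes were highest in beta cells.

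**Figure D4:**
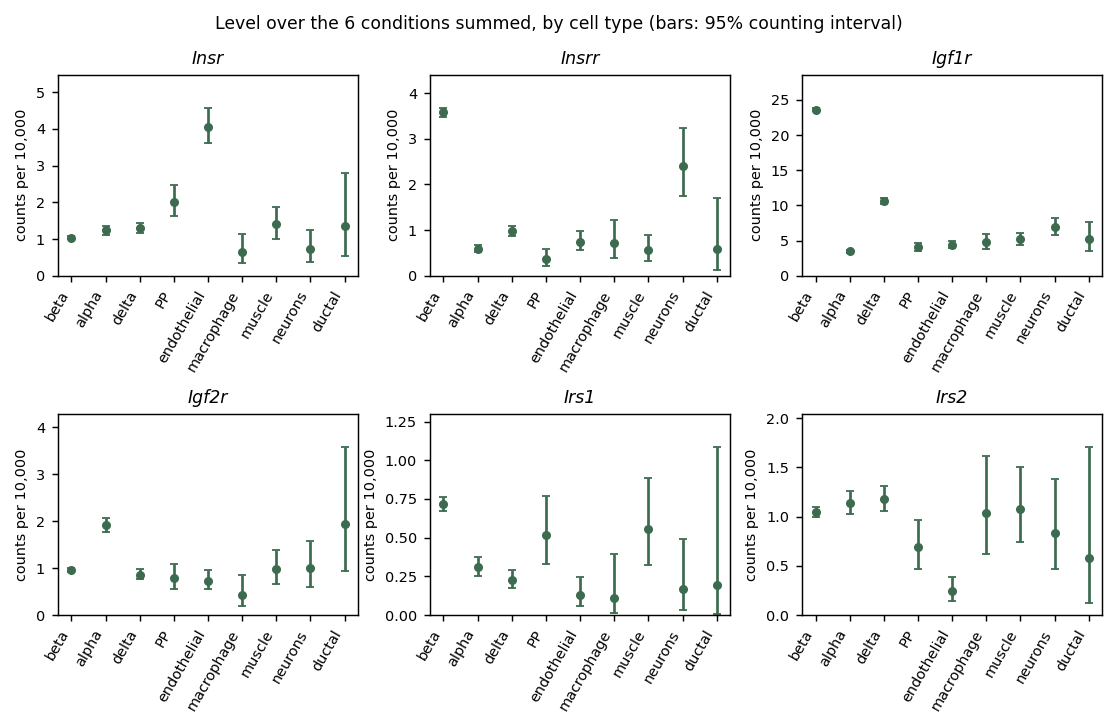
Level of each gene with the counts of the 6 conditions summed (vertical axis, counts per 10000) in the 9 labelled cell types, with 95% counting intervals as bars. *Insr* was highest in endothelial cells at 4.07 CP10K, *Igf1r* and *Insrr* in beta cells at 23.6 and 3.57, and *Igf2r* in alpha cells at 1.91 among the deeper types.

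Levels of different genes compare only per length. The beta cell level used here has the counts of the 6 conditions summed, FSK pools included. Nuclear RNA holds introns, so the beta cell level was divided by the gene span: *Insrr* gave 0.187 CP10K per kb over 19.2 kb, *Igf1r* 0.0837 over 282 kb, *Irs2* 0.0422 over 24.8 kb, *Irs1* 0.0122 over 58.5 kb, *Igf2r* 0.0110 over 87.3 kb and *Insr* 0.00659 over 158 kb. Per kb of summed exons *Igf1r* came first at 1.19, *Insrr* second at 0.624, and *Irs2* kept the third place at 0.142, while *Insr* stayed last at 0.0754. Over the 6 conditions *Igf1r* ran from 7.80 to 49.7 CP10K and *Insrr* from 1.31 to 5.16. The FSK pools were the highest for *Igf1r* and the lowest for *Insrr*. The order of these genes therefore describes the sum, and it was not computed within conditions.

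The other genes of the insulin and IGF pathway were read from a fixed list of ligands, binding proteins, adaptors, kinases, downstream factors and inhibitors. Of 71 listed, 63 were in the table, and 57 of these were kept in beta cells. In WT with FSK the median difference was -0.04 beside -0.05 over all kept genes. Of the 57, 0 were lower, against 0.723% of kept genes, and 1 was higher, against 1.52%. The 1 was *Pik3r1*, the regulatory subunit of PI3-kinase, at 5.23 CP10K [4.97 to 5.49] against 2.85 [2.66 to 3.05]. In the mutant 4 were higher, against 5.12%, and 2 lower, against 2.7%, with a median of 0.04 beside -0.02. *Foxo1*, a transcription factor held out of the nucleus by AKT, was 4.06 [3.81 to 4.33] against 1.47 [1.31 to 1.66]. *Pik3r1* was 4.86 [4.58 to 5.16] against 2.00 [1.80 to 2.21]. The adaptor *Gab2* was 2.67 [2.46 to 2.89] against 1.18 [1.04 to 1.35], and the ubiquitin ligase *Cblb* was 1.89 [1.72 to 2.08] against 0.873 [0.746 to 1.01]. The lower ones were the insulin genes: *Ins1* was 3.59 [3.35 to 3.84] against 8.52 [8.11 to 8.94] and *Ins2* 8.76 [8.38 to 9.15] against 15.2 [14.7 to 15.8]. In WT the insulin genes were not past the threshold, with *Ins1* at 3.26 [3.07 to 3.47] against 4.54 [4.31 to 4.79] and *Ins2* at 8.81 [8.48 to 9.14] against 10.4 [10.0 to 10.8]. *Foxo1*, *Gab2* and *Cblb* were not past it in WT either. The WT CON level of *Foxo1*, given below, lay closer to that of mutant FSK than to that of mutant CON. *Igf1* and *Igf2* were on the list but are not among the genes of the table.

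With Ex-4 in WT beta cells 1 pathway gene was higher, *Ins2* at 16.4 CP10K [15.9 to 16.9] against 10.4. Of the 57, 2 were lower, among them *Foxo1* at 1.91 [1.76 to 2.07] against 3.57 [3.36 to 3.79]. The baseline comparison of mutant with WT gave 1 higher, *Ins1*, and 2 lower, among them *Foxo1* at 1.47 against the same WT CON pool. The median over the list was -0.01 for Ex-4 in WT beside 0.03 over all kept genes, and -0.09 at baseline beside 0.00. In either direction 3.12% of kept genes were past the threshold for Ex-4 in WT and 5.34% at baseline. In the other 3 comparisons in beta cells 0 of 57 were past the threshold, against at most 0.139% of kept genes. In alpha cells with FSK 1 of 51 was higher in WT and 2 in the mutant, against 1.34% and 3.13% of kept genes. In both genotypes 0 were lower, against 1.17% and 0.885%. In delta cells 0 of 50 were higher and 1 lower in WT, against 2.45% and 2.33% of kept genes. In the mutant 3 were higher and 2 lower, against 5.47% and 2.44%. At baseline 1 was higher and 8 were lower in mutant alpha cells, and 1 was higher and 5 were lower in mutant delta cells. In either direction 7.38% of kept genes were past the threshold in alpha cells and 7.05% in delta cells. With Ex-4 in WT 1 was higher and 3 were lower in each of these cell types, against 5.72% of kept genes in alpha and 5.06% in delta cells. Mutant against WT under FSK gave 1 lower for alpha and 0 for delta cells, against 0.485% and 0.411% of kept genes. Every remaining comparison in these cell types gave 0, against at most 0.281%.

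**Figure D5:**
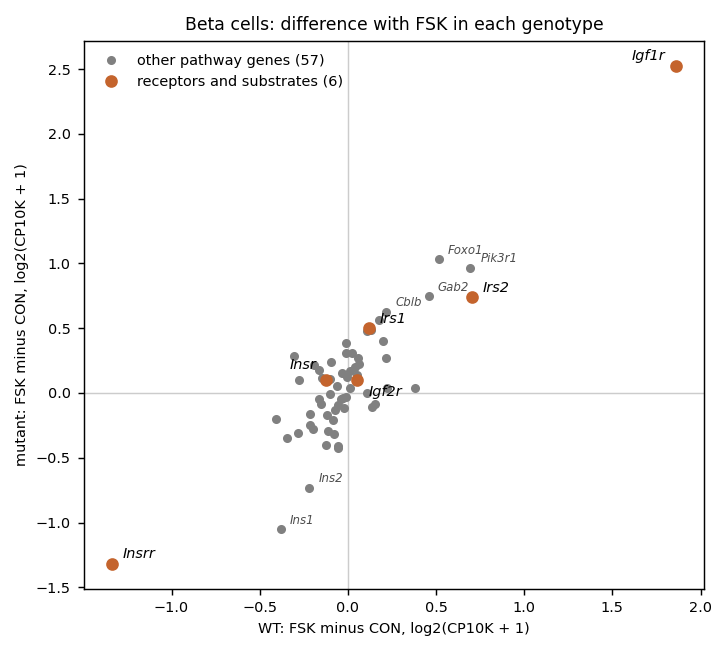
Difference of log2(CP10K + 1) between FSK and CON in beta cells, WT on the horizontal and mutant on the vertical axis; the 6 receptors and substrates are in orange and 57 other pathway genes in grey, with those past 1.5-fold in either genotype named. *Igf1r* (1.86 and 2.53) and *Insrr* (-1.34 and -1.32) lie at the ends of the range.

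The pattern over the 18 beta, alpha and delta pools was compared with that of 8561 genes kept in all 3 cell types, by Pearson's r of log2(CP10K + 1). The pools share cell type, treatment and preparation, so r is a description only. Closest to *Igf1r* were *Gucy2c* (r = 0.96), *Arhgap26* (0.95) and *Dgkg* (0.95). Closest to *Insrr* were *Nfix* (0.97), *Tmod1* (0.97) and *Lrrc36* (0.96), and closest to *Irs2* were *Septin9* (0.97), *Sik1* (0.95) and *Rap2a* (0.93). *Irs1* was closest to *Kcnh1* (0.95), *Sec24d* (0.94) and *Ube3c* (0.93), and *Igf2r* to *AI661453* (0.94), *Galnt2* (0.92) and *Mctp2* (0.91). *Insr* was closest to *Gca* (0.89), *Kcnk12* (0.89) and *Plekha7* (0.88). With ribosomal RNA linked and mitochondrial genes left out of the totals, *Gca* moved to place 6 (0.84) and *Kcnk12* to place 8 (0.83). *Plekha7* stayed at place 3 (0.85), and the genes named for the other members stayed within the first 4 places.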

How the data were processed

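Nuclei of about 100 islets for each condition were sorted, fixed and barcoded by combinatorial indexing. The authors aligned reads to mm39, dropped nuclei of very low or high counts or features and of high mitochondrial content, integrated the rest and named the cell types. The deposited values are natural log values, ln(1 + 10000 × count / column total), in 54 pooled columns. Column totals were recovered as the numbers that make all values whole, and 100% of values lay within 0.001 of a whole count. Differences are of log2(CP10K + 1). The filter retained genes whose 6-condition mean reached the 40th percentile among detected genes, leaving 10093 in beta, 9487 in alpha and 9256 in delta cells, and all 6 members passed in each. Intervals are exact Poisson for levels and exact conditional binomial for ratios (95%). The members and lists were chosen with earlier results of these data known. Named genes were the members, pathway genes past the threshold in beta cells, the insulin genes, and for each member the 3 genes of highest r. Some pathway genes past the threshold are not reported here. Overlapping genes, and the beta markers, were named beside the results they touch. The computations were tested on simulated data. The alternatives tried were a linear CP10K ratio (pseudocount 0.01, 0.1 or 1 times the median mean), leaving out the filter or raising it to the 75th percentile, a 2-fold threshold, intervals that do not overlap, centring on the median, totals without 15 genes linked to ribosomal RNA or mitochondrial, and subtracting a lowess fit on log gene length (span 0.3). Scripts ran in Python 3.11.15 with scipy 1.17.1 for intervals, statsmodels 0.14.6 for lowess, pandas 2.3.3 and numpy 2.4.6 for tables and matplotlib 3.10.9 for figures.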

Additional observations from a re-analysis of the deposited data

How the results depend on the processing

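The direction of every member past the threshold was the same under all 10 alternatives. The FSK count of 3 of 6 in beta cells of each genotype became 2 at a 2-fold threshold, without *Irs2*. With each of the 3 pseudocounts the FSK count of 3 became 4, with *Irs1*, in mutant beta cells and in delta cells of both genotypes. In mutant delta cells 1 member was left at 2-fold. At baseline in beta cells the count of 1 became 2 with pseudocounts of 0.01 and 0.1 times the median (*Igf1r* and *Irs1*), and 0 at 2-fold, with rescaled columns and with the length trend removed. For Ex-4 in WT beta cells the count of 0 became 1 (*Irs1*) with each of the 3 pseudocounts. In alpha cells the FSK count of 2 became 5 and 4 in WT with pseudocounts of 0.01 and 0.1, and 5, 5 and 4 in the mutant with 0.01, 0.1 and 1. It became 3 in WT with 1 and in the mutant with rescaled columns. With 0.01 and 0.1 the count of 0 became 1 for Ex-4 in alpha cells of each genotype and 2 for mutant against WT under FSK. In delta cells the count of 0 became 1 with 0.01 and 0.1 for WT Ex-4, for the baseline and for mutant against WT under FSK and Ex-4, and also with 1 for WT Ex-4 and the baseline. Pathway gene counts, whose alternatives were added after seeing the data, ran from 0 to 9 over 21 comparisons as reported, from 2 to 31, 0 to 30 and 0 to 17 with the pseudocounts of 0.01, 0.1 and 1, from 0 to 2 at 2-fold and from 0 to 4 with the length trend removed. Over the rarer cell types low counts were the limit. With untreated columns alone 4 in place of 3 members were highest in beta cells.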
